A study of Mus musculus with 2 samples.

Results

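The glycolysis genes described here are 10 genes that turn glucose into lactate or control its entry and rate. They were taken by symbol from the 32589 genes listed for both single-cell libraries, and each of the 10 symbols was found. In pathway order they are *Slc2a1*, *Hk2*, *Pfkl*, *Pfkfb3*, *Aldoa*, *Gapdh*, *Pgk1*, *Eno1*, *Pkm* and *Ldha*. The data are scRNA-Seq of mouse cholangiocarcinoma (CCA) livers, with 1 library for each of 2 groups. Both groups carried the shYT genotype, in which doxycycline induces shRNAs that target *Yap1* and *Wwtr1*, the genes of YAP and TAZ, in the whole body through an activator driven by a CAG promoter. Tumors came from transposon plasmids for an activated Notch receptor and a myristoylated AKT kinase, injected hydrodynamically into the tail vein. Doxycycline began on day 25 and livers were taken on day 33. One group received PBS, and the other received the anti–mouse PD-1 antibody RMP1-14 on days 26, 29 and 32. The labels give no number of animals and no age for these libraries. For the T cell clusters of this experiment n = 4 per group is stated, without saying how the 4 went into 1 library. The cells were not marked with hashtag antibodies, so they could not be assigned to animals. The comparison of the 2 libraries therefore asks how the RNA of these genes differed in each cell class when anti–PD-1 was added to YAP/TAZ depletion, and neither library shows what YAP/TAZ depletion alone does.

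Glycolysis splits glucose in the cytosol and yields ATP without oxygen. *Slc2a1* encodes GLUT1, a glucose transporter of the plasma membrane. *Hk2* encodes hexokinase 2, which phosphorylates glucose and so traps it in the cell, and *Pfkl* encodes the liver-type phosphofructokinase at the committed step. *Pfkfb3* makes fructose 2,6-bisphosphate, an activator of phosphofructokinase. *Aldoa* (aldolase A), *Gapdh*, *Pgk1* (phosphoglycerate kinase), *Eno1* (enolase) and *Pkm* (pyruvate kinase of muscle type) carry out the following steps, and *Ldha* encodes the lactate dehydrogenase subunit that favours lactate. Activated T cells and many tumor cells are known for high use of this pathway, and the hypoxia-inducible factor HIF-1 is a well-known activator of many of its genes.

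The members are spread over 7 mouse chromosomes of GRCm38 (mm10), by the GENCODE vM21 annotation. *Slc2a1* (ENSMUSG00000028645) lies on the forward strand at chr4:119108711-119137983 and *Eno1* (ENSMUSG00000063524) on the same strand at chr4:150236721-150248879. *Hk2* (ENSMUSG00000000628) at chr6:82725025-82774454 and *Gapdh* (ENSMUSG00000057666) at chr6:125161715-125166467 are on the reverse strand. *Aldoa* (ENSMUSG00000030695, reverse strand) is at chr7:126795234-126800751 and *Ldha* (ENSMUSG00000063229, forward strand) at chr7:46841475-46855627. *Pfkfb3* (ENSMUSG00000026773) is at chr2:11471433-11554077 and *Pfkl* (ENSMUSG00000020277) at chr10:77986947-78010083, both on the reverse strand. *Pkm* (ENSMUSG00000032294) is at chr9:59656368-59679375 and *Pgk1* (ENSMUSG00000062070) at chrX:106187100-106203699, both on the forward strand, so *Pgk1* is the X-linked member. All 10 are protein-coding.

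HIF-1 is known to act on the promoters of several of these genes, so the 250 bases before each start site in RefSeq (GRCm38.p6) were searched for ACGTG on either strand, the core of the HIF-1 motif, which an E-box CACGTG also contains. At least 1 start site of 7 of the 10 members had it, against 4998 of 27025 genes in all (18.5%). The 7 were *Slc2a1*, *Hk2*, *Pfkfb3*, *Aldoa*, *Pgk1*, *Pkm* and *Ldha*. In single windows it was found in 9 of 17 windows of the members (52.9%), some of which overlap, and in 5444 of 32851 windows in all (16.6%). A match in letters is not a binding site, and no binding was measured here. The stretches with a match are shown for 6 of the 7 members on the strand of the gene, with the matches in capitals. By GENCODE, those of *Slc2a1*, *Pkm* and the first of *Pfkfb3* overlap the untranslated part of an exon of a transcript that starts further upstream. They show how much the layout differs, from a single core near the start site of *Slc2a1* to 3 places in *Ldha*, 2 of which are E-boxes.
Slc2a1 (chr4:119108697-119108725): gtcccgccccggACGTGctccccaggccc
Pfkfb3, start site 1 (chr2:11553973-11554001): ctccgcgccgtgACGTGccaagctgtgac
Pfkfb3, start site 2 (chr2:11502126-11502155): cacccttctctcCACGTGaaagggggctgg
Aldoa, start sites 2 and 3 (chr7:126799364-126799392): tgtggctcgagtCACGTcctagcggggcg
Pgk1 (chrX:106186938-106186985): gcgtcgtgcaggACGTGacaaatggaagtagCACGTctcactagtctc
Pkm, start site 2 (chr9:59657140-59657168): ctccgatccggtCACGTccgcgccgcagc
Ldha, start site 1 (chr7:46845647-46845786): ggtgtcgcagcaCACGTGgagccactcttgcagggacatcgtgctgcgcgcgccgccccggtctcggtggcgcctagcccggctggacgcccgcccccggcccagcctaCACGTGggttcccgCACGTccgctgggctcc
*Hk2*, whose stretch is not shown, had 2 such places, and *Pfkl*, *Gapdh* and *Eno1* had none in these windows.

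Quality limits of 500 to 5000 genes per cell and no more than 10% mitochondrial UMIs kept 15531 PBS and 16360 anti–PD-1 cells (median 3159 and 2990 UMIs). Marker gates put 11171 and 11494 of them into 18 classes with at least 50 cells in each library. Class names below stand for cells called by such a gate ("X-like"). A check with 38 further marker genes took related classes as groups. The T cell classes were together, as were Kupffer cells, tumor-associated macrophages and monocytes, and as were cDC1, cDC2 and mature dendritic cells. Every class of a marker's group was above the median of the classes outside it in 76 of 76 pairs of marker and library. A class of the group was highest in 72. The splits within a group were not checked in this way, and plasmacytoid dendritic cells had no check marker. The libraries differ in ways that were not separated from the treatment. *Xist*, which female cells express, had 18452 PBS and 11 anti–PD-1 UMIs, against 3113 and 15323 UMIs of 4 Y-linked genes, so the PBS library held cells of both sexes and the anti–PD-1 library nearly only male cells. The stress genes that respond to tissue dissociation had a higher median in the anti–PD-1 library in all 9 larger classes, and the part of either difference in the results was not tested. The libraries shared 219 cell barcodes. As each group is 1 library, differences were not tested, and the intervals of genes and of shares are 95% intervals that cover counting error only. Those beside a median of the members are the medians of the members' lower and upper bounds, without 95% coverage of the median. Levels are CPM (UMIs of a gene scaled to the UMIs of its class), and differences are log2 ratios of the anti–PD-1 over the PBS library after adding 5 CPM to both.

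Each glycolysis gene had its own order of the 18 classes. *Slc2a1* was highest in neutrophils in both libraries, at 130 CPM (114 to 146) with PBS and 179 CPM (169 to 190) with anti–PD-1, and lowest in plasma cells, at 8.24 and 18.6 CPM. The next class was monocytes in the PBS library (62.4 CPM) and cDC2 in the anti–PD-1 library (133 CPM), and neither interval reached that of neutrophils. *Pfkfb3* stood out in mature migratory dendritic cells, at 596 CPM (517 to 685) and 367 CPM (310 to 433). The second class was far below, with 61.3 CPM in PBS neutrophils and 78.4 CPM in anti–PD-1 endothelial cells. The tumor and biliary epithelial class was highest for *Eno1*, at 984 CPM (959 to 1009) and 1367 CPM (1323 to 1411), followed by monocytes at 530 and 593 CPM. It was also highest for *Pgk1*, at 547 CPM (529 to 566) with PBS, where monocytes followed at 309 CPM. With anti–PD-1 these classes had 334 and 322 CPM and their intervals overlapped. *Ldha* was highest in regulatory T cells (Treg), at 866 CPM (811 to 925) and 772 CPM (722 to 824), ahead of cDC1 at 633 and 737 CPM. The intervals of Treg and cDC1 overlapped in the anti–PD-1 library.

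*Gapdh* was highest in Treg in the PBS library (2014 CPM, 1929 to 2102) and in monocytes in the anti–PD-1 library (1878 CPM, 1788 to 1971). *Hk2* was highest in monocytes in both, at 74.9 and 88.3 CPM, with TAMs (71.4 CPM) and Kupffer cells (87.4 CPM) next and inside the counting error. *Aldoa* was led by monocytes (727 CPM) and by TAMs (923 CPM), and *Pkm* by neutrophils (979 CPM) and by monocytes (1007 CPM). *Pfkl* was led by the epithelial class in the PBS library (69.2 CPM), while TAMs (95.7 CPM) and the epithelial class (95.4 CPM) were level in the other. Plasma cells, which are known to be rich in immunoglobulin transcripts, were lowest for 9 of the 10 members with PBS and for 7 with anti–PD-1. The 10 genes took 0.0942% of all UMIs in PBS plasma cells and 0.516% in PBS Treg. Hepatocytes, with 77 and 20 cells, were too few for a ratio and are not among the 18 classes. Their *Ldha* level was 1126 CPM (982 to 1285) and 913 CPM (735 to 1121), above Treg in both libraries, with overlapping intervals in the anti–PD-1 library. *Slc2a1* had 6 and 0 UMIs there, and the count of 0 has an exact Poisson upper bound of 37.0 CPM.

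**Figure D1:**
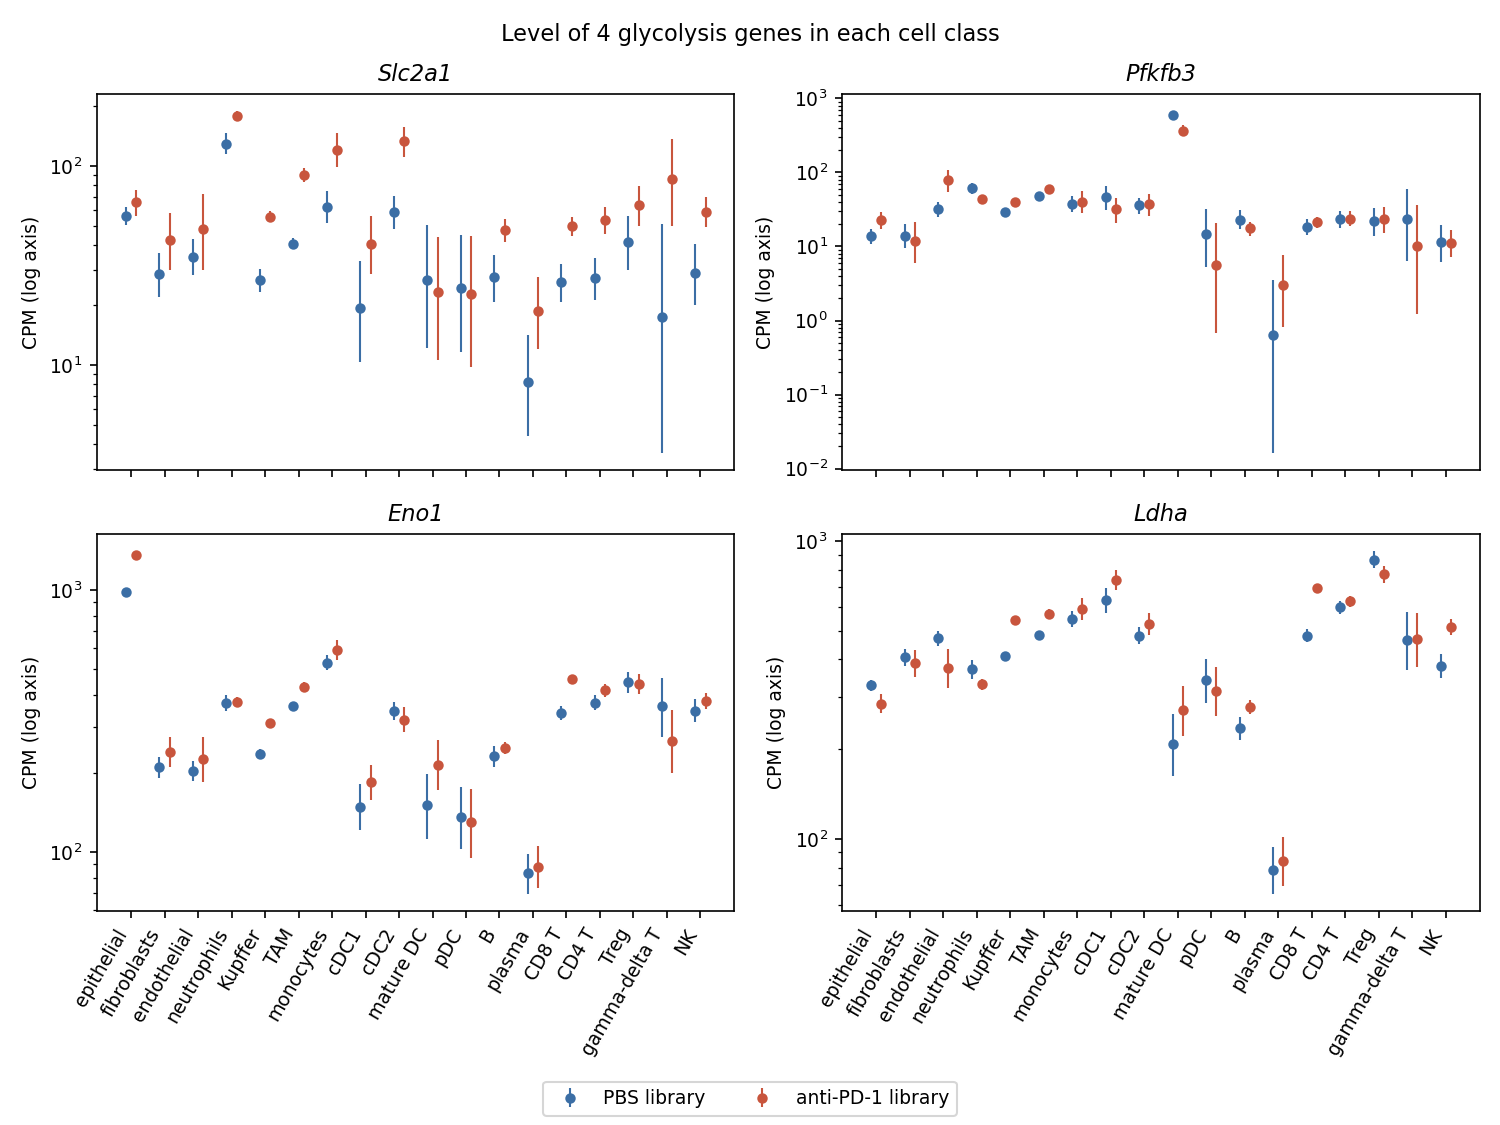
Level of Slc2a1, Pfkfb3, Eno1 and Ldha in each of 18 cell classes, in CPM on log axes, for the PBS library (blue) and the anti–PD-1 library (red). Points are sums over all cells of a class and bars are exact Poisson 95% intervals. Pfkfb3 stands apart in mature dendritic cells at 596 and 367 CPM, and Eno1 in the epithelial class at 984 and 1367 CPM.

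Between the libraries, *Slc2a1* was the member with an interval above 0 in the most classes. It was higher with anti–PD-1 in 16 of 18 classes and its interval lay above 0 in 13 and below 0 in none. The share of all genes with such counts over classes was not computed. The 18 classes come from the same 2 libraries, so a difference between whole libraries would recur across them. The interval of *Gapdh* lay above 0 in 10 classes and below 0 in 5. The median of the 18 log2 ratios of *Slc2a1* was 0.83, against 0.02 to 0.33 for the other 9 members. In sums over all kept cells *Slc2a1* had 40.4 CPM with PBS and 71.9 CPM with anti–PD-1. Among the larger classes the log2 ratio was lowest in the epithelial class (0.21, −0.04 to 0.45) and highest in TAMs (1.06, 0.91 to 1.20). The GLUT1 gene was lower only in mature dendritic cells and plasmacytoid dendritic cells, at 9 and 9 UMIs and at 10 and 8 UMIs, and both intervals there spanned 0. Free RNA in droplets was estimated from transcripts that belong to neutrophils and to Kupffer cells. Outside neutrophils, their transcripts *S100a8* and *S100a9* reached at most 0.941% of the neutrophil level, in PBS monocytes. Taken in each class and library by itself, that share would carry at most 1.58 CPM of *Slc2a1*, in anti–PD-1 monocytes. *Clec4f* of Kupffer cells reached at most 3.53% of its Kupffer level in other classes, or at most 1.96 CPM of *Slc2a1*, with TAMs and monocytes left out because their gates exclude *Clec4f*.

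**Figure D2:**
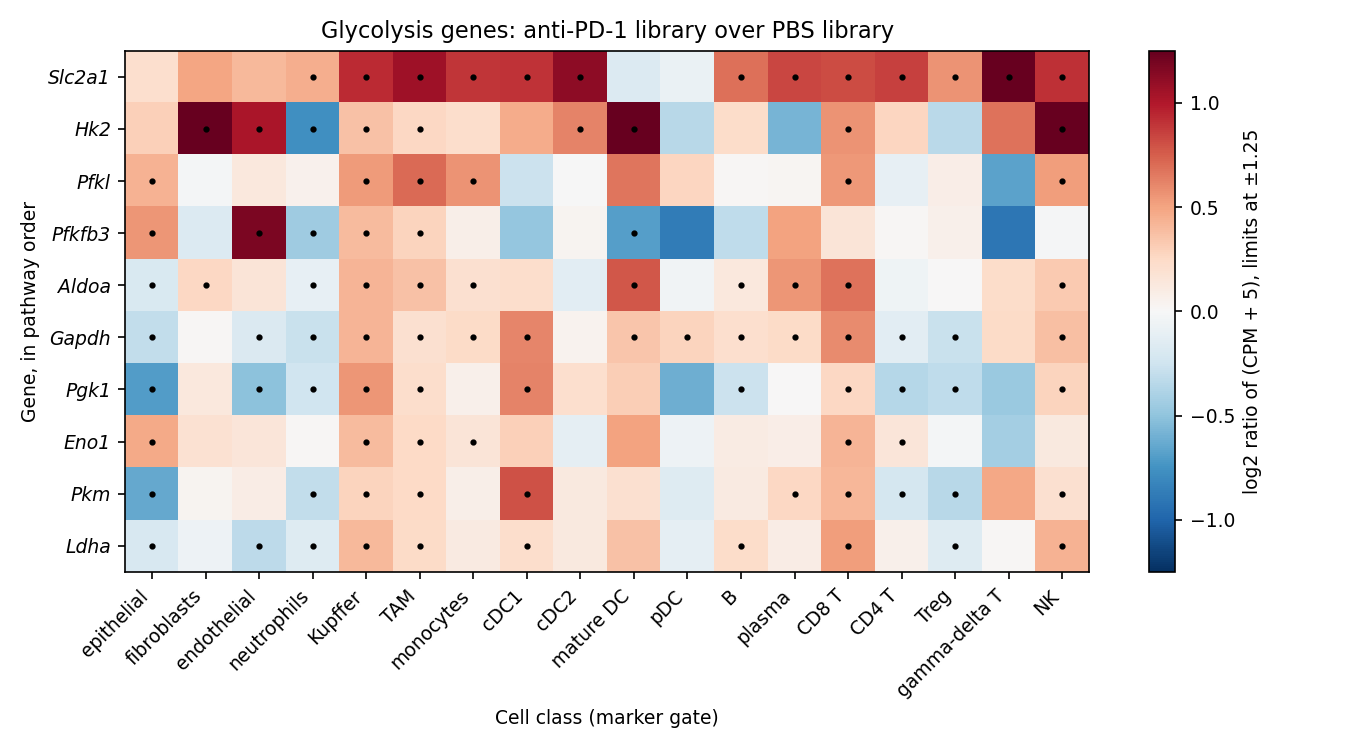
Log2 ratio of the anti–PD-1 over the PBS library, after adding 5 CPM, for the 10 glycolysis genes (rows, in pathway order) in 18 cell classes (columns). Red is higher and blue lower with anti–PD-1, colours are limited as the scale shows, and a black dot marks a 95% counting interval that does not include 0. The Slc2a1 row is red in 16 of 18 columns, and the Kupffer, TAM and CD8 T columns are red in all 10 rows.

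In CD8 T cells, gated among T cells by *Cd8a* or *Cd8b1* UMIs (931 PBS and 1358 anti–PD-1 cells), all 10 members were higher with anti–PD-1. In this class 37.8% of the 10920 genes with at least 30 UMIs were higher. The median log2 ratio of the members was 0.53 (0.33 to 0.62), beside −0.09 for all genes. *Gapdh* went from 1109 CPM (1073 to 1146) to 1674 CPM (1644 to 1705), a log2 ratio of 0.59 (0.54 to 0.65). *Aldoa* had 346 and 556 CPM (0.68, 0.58 to 0.77), and *Ldha* 481 and 692 CPM (0.52, 0.44 to 0.60). *Slc2a1* had 26.0 and 49.7 CPM (0.82, 0.52 to 1.12), and *Hk2* 6.96 and 12.7 CPM (0.57, 0.13 to 0.98). *Hk2* was 0.00 without cells carrying markers of another lineage, and free Kupffer cell RNA at the share of *Clec4f* would carry 1.83 of its 12.7 CPM. The intervals of the levels did not overlap between the libraries for *Gapdh*, *Aldoa*, *Ldha* and *Slc2a1*. *Eno1*, *Pkm* and *Pfkl* had log2 ratios of 0.43, 0.41 and 0.54. The activator gene *Pfkfb3* differed less (0.16, −0.19 to 0.51), and 9 of the 10 intervals lay above 0, where 14.7% of genes had such an interval. Intervals narrow as UMIs rise, and *Gapdh* had 3667 and 11870 UMIs in this class. The shares of genes by interval, here and below, are over genes with at least 30 UMIs and were not matched for UMIs. They are therefore not a like-for-like background for members with many UMIs. *Slc2a1*, *Aldoa* and *Gapdh* were at least 1.5-fold higher, where 5.12% of all genes of the class were, and no member was 1.5-fold lower, where 6.78% of genes were.

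The share of cycling CD8 T cells also differed. After thinning each cell to 1000 UMIs, 6.16% of PBS (4.70% to 7.90%) and 11.1% of anti–PD-1 CD8 T cells (9.46% to 12.9%) had UMIs of at least 2 of 10 cycling genes, with 5 and 14 shallower cells left out. Without thinning the shares were 10.7% and 23.2%. In the 831 and 1043 CD8 T cells with fewer than 2 cycling genes, all 10 members were still higher, where 34.2% of 10085 genes were. Their median was 0.22 in place of 0.53, beside −0.12 for all genes. *Gapdh* had 904 and 1120 CPM there (0.31, 0.24 to 0.38) and *Aldoa* 352 and 444 CPM (0.33, 0.22 to 0.44). *Slc2a1* changed less on leaving out cycling cells, with 27.0 and 48.1 CPM (0.73, 0.39 to 1.08), whereas *Pgk1* (0.04), *Eno1* (0.11) and *Pfkl* (0.21) had intervals that spanned 0. In the 100 and 315 cycling cells the median was 0.50, beside −0.03 for all genes, and *Aldoa* had 320 and 736 CPM (1.19, 0.99 to 1.40). The CD8 median was 0.26 when cells carrying markers of another lineage were left out and 0.32 when each cell counted alike. Leaving out those cells kept 623 of 931 PBS and 569 of 1358 anti–PD-1 CD8 T cells. The median of all genes was not computed for these 2 alternatives.

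CD8 T cells with a UMI of *Pdcd1*, the gene of the PD-1 receptor, were also described alone. In these cells (183 and 457), all 10 members were higher, where 43.9% of 8827 genes were, with a median of 0.53 beside −0.07 for all genes. *Ldha* had 490 and 939 CPM there (0.93, 0.77 to 1.09) and *Gapdh* 1614 and 2425 CPM (0.59, 0.50 to 0.68). *Aldoa* had 414 and 748 CPM in these cells (0.85, 0.67 to 1.02) and *Slc2a1* 37.0 and 50.8 CPM (0.41, −0.13 to 0.98). The anti–PD-1 CD8 T cells were deeper (median 4201 against 2981 UMIs), and a gate on a single UMI depends on depth.

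In conventional CD4 T cells the members did not share a direction. In this class (682 and 768 cells), gated by *Cd4* without *Foxp3*, 5 of 10 members were higher, where 33.8% of 9975 genes were, with a median of −0.02 (−0.24 to 0.20) beside −0.13 for all genes. *Slc2a1* was higher, with 27.2 and 53.2 CPM (0.85, 0.49 to 1.22), and was the only member past 1.5-fold, where 5.65% of genes were. *Pgk1* was lower, with 249 and 194 CPM (−0.35, −0.51 to −0.19), as was *Pkm*, with 592 and 509 CPM (−0.22, −0.32 to −0.11). *Gapdh* had 1640 and 1494 CPM (−0.13, −0.19 to −0.07), but was above 0 by 0.02 to 0.05 in 4 of 13 alternatives. With median-of-ratios scaling, which centres the median gene of a class on no change, 8 members were higher. The shares of all genes given here are without that scaling and were not computed with it. No member was 1.5-fold lower, where 9.13% of genes were.

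In Treg, gated by *Foxp3* (239 and 235 cells), 4 of 10 members were higher, where 42.1% of 7878 genes were. The median was −0.10 (−0.38 to 0.16), beside −0.08 for all genes. *Gapdh* had 2014 and 1655 CPM (−0.28, −0.37 to −0.19), *Pkm* 813 and 640 CPM (−0.34, −0.49 to −0.20) and *Ldha* 866 and 772 CPM (−0.17, −0.30 to −0.03). *Pgk1* had 286 and 229 CPM (−0.31, −0.55 to −0.08). These 4 intervals lay below 0, as did those of 14.2% of genes. *Slc2a1*, at 41.4 and 63.4 CPM (0.56, 0.05 to 1.08), was the only one above, as were 10.9% of genes. No member was past 1.5-fold in either direction, where 8.0% of genes were higher and 11.3% lower. The share of cycling Treg after thinning was 12.3% (8.39% to 17.2%) and 6.81% (3.94% to 10.8%), with overlapping intervals. Without thinning it was 21.3% and 20.9%. Among Treg with fewer than 2 cycling genes *Gapdh* (−0.22) and *Pkm* (−0.35) were lower by a similar amount, *Ldha* was not (0.03, −0.15 to 0.22), and the interval of *Pgk1* spanned 0 (−0.25, −0.58 to 0.07). The direction in Treg did not hold in cells marked as male by a Y-linked UMI without *Xist*, of which the PBS library held 22. There the median was 0.38, and *Gapdh* (0.27), *Pgk1* (1.05), *Pkm* (0.48) and *Ldha* (0.17) were higher. *Slc2a1* in Treg was −0.07 without cells carrying markers of another lineage.

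**Figure D3:**
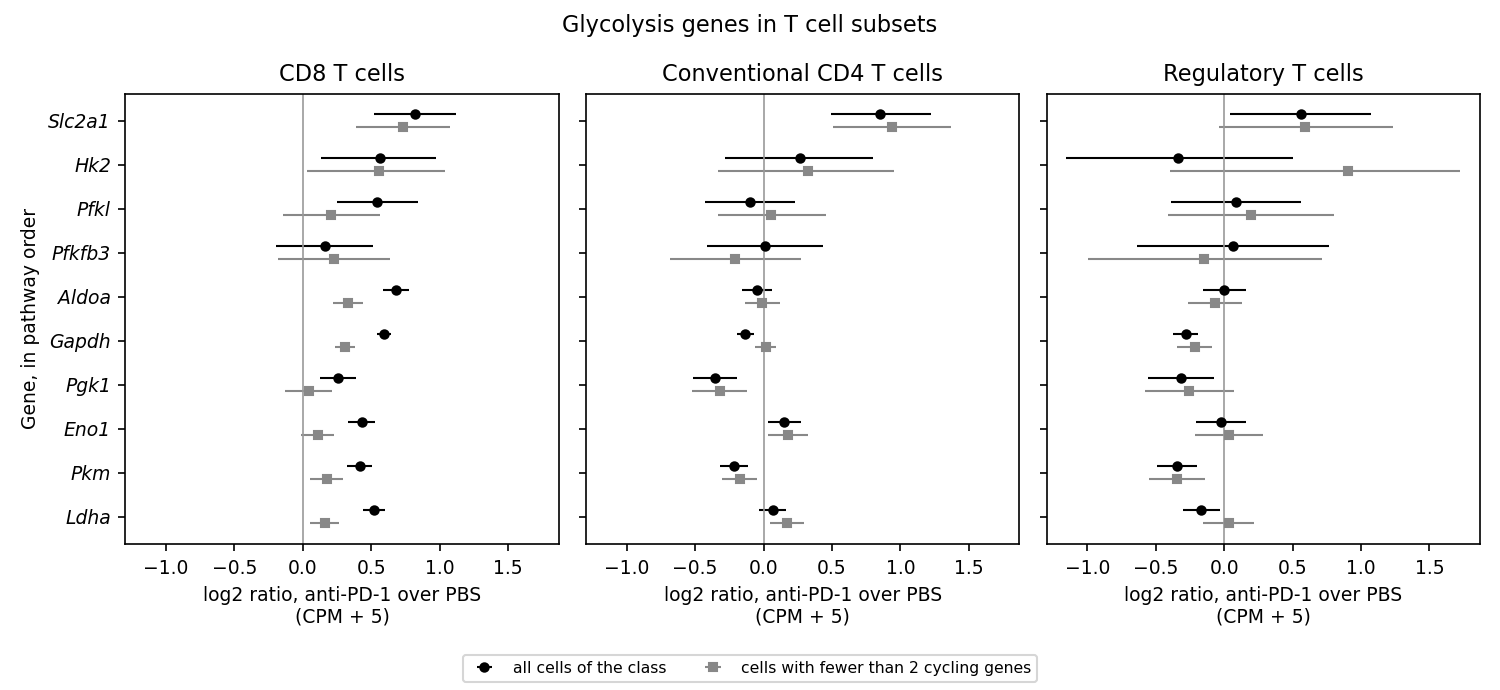
Log2 ratio of the anti–PD-1 over the PBS library (CPM + 5) for the 10 glycolysis genes in CD8 T cells, conventional CD4 T cells and regulatory T cells, for all cells of the class (black circles) and for cells with fewer than 2 cycling genes (grey squares). Bars are 95% counting intervals. Slc2a1 lies to the right of 0 in all 3 panels, whereas Gapdh lies at 0.59 in CD8 T cells and at −0.28 in regulatory T cells.

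Most members were higher in NK cells. In 410 and 554 NK cells, 9 of 10 members were higher, where 35.9% of 8621 genes were, and 8 intervals lay above 0, where those of 9.86% of genes did. The median was 0.35 (0.09 to 0.58), beside −0.14 for all genes. *Ldha* had 380 and 515 CPM (0.43, 0.27 to 0.59), *Gapdh* 782 and 1016 CPM (0.38, 0.26 to 0.49) and *Slc2a1* 29.0 and 58.9 CPM (0.91, 0.41 to 1.42). *Hk2* rested on 2 and 26 UMIs, fewer than the 30 asked of the genes in these shares. Free Kupffer cell RNA at the share of *Clec4f* would carry 2.38 of its 12.2 CPM in the anti–PD-1 library. *Slc2a1* and *Hk2* were past 1.5-fold, where 6.24% of genes were, and none was 1.5-fold lower, where 12.4% were. The share of cycling NK cells after thinning was 2.26% (1.04% to 4.25%) and 4.91% (3.26% to 7.06%). Without cycling cells (397 and 480) the NK median was 0.13. The intervals of *Ldha* (0.14, −0.04 to 0.32) and *Gapdh* (0.12, −0.01 to 0.25) then spanned 0, as did those of *Pkm* (0.00), *Eno1* (−0.06), *Pgk1* (−0.10) and *Pfkl* (0.46). Those of *Slc2a1* (1.08, 0.54 to 1.62), *Hk2* (1.08, 0.13 to 1.58, on 2 and 15 UMIs) and *Aldoa* (0.31, 0.12 to 0.49) stayed above 0. In B cells (951 and 1636), 8 of 10 members were higher, where 34.8% of 10315 genes were, with a median of 0.12 (−0.04 to 0.28) beside −0.13 for all genes. *Slc2a1*, with 27.6 and 47.4 CPM (0.69, 0.32 to 1.06), was the only one past 1.5-fold, where 4.79% of genes were. *Pgk1*, with 140 and 115 CPM (−0.27, −0.47 to −0.07), was the only member with an interval below 0, where 23.5% of genes had one, and no member was 1.5-fold lower, where 9.48% of genes were. The B cell median was 0.06 without cycling cells and 0.27 with median-of-ratios scaling.

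Both macrophage classes had every member higher with anti–PD-1 and every interval above 0, where 15.6% of genes in Kupffer cells and 14.8% in TAMs had one. The 2 classes were split by a *Clec4f* UMI, which TAMs may not have. Stray *Clec4f* was higher with anti–PD-1 in the classes outside macrophages and monocytes, as in CD8 T cells (30.5 and 93.8 CPM). In Kupffer cells it was at 5716 and 4477 CPM. The gate may thus sort macrophages differently in the 2 libraries, and its part in these values was not tested. With cells thinned to 1000 UMIs, *Pfkfb3* in Kupffer cells (−0.05) and *Pgk1* in TAMs (−0.02) turned to just below 0. Kupffer cells, the resident macrophages of the liver, were gated by *Clec4f* (900 and 1723 cells), and 33.2% of 12373 genes were higher there. Their median was 0.41 (0.36 to 0.48), beside −0.11 for all genes. *Gapdh* had 1027 and 1377 CPM (0.42, 0.39 to 0.46), *Aldoa* 583 and 785 CPM (0.43, 0.38 to 0.47) and *Ldha* 410 and 544 CPM (0.40, 0.35 to 0.46). The other members were between 0.28 in *Pkm* (615 and 746 CPM) and 0.55 in *Pgk1* (149 and 220 CPM), and *Slc2a1* was above them at 26.7 and 55.6 CPM (0.94, 0.76 to 1.12). *Slc2a1* alone was past 1.5-fold, where 4.70% of genes were, and none was 1.5-fold lower, where 2.54% were. Over all alternatives the Kupffer median lay between 0.37 and 0.57. The share of cycling Kupffer cells after thinning was 2.26% and 4.57%.

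In tumor-associated macrophages without *Clec4f* (TAMs, 2755 and 811 cells), 31.0% of 12724 genes were higher. The members' median was 0.25 (0.18 to 0.35), beside −0.14 for all genes. *Slc2a1* had 40.7 and 90.0 CPM (1.06, 0.91 to 1.20) and *Pfkl* 56.8 and 95.7 CPM (0.70, 0.57 to 0.84), and these 2 were past 1.5-fold, where 5.66% of genes were and 4.95% were 1.5-fold lower. The remaining members were between 0.20 in *Gapdh* (1474 and 1696 CPM) and 0.37 in *Aldoa* (714 and 923 CPM). Monocytes, the circulating precursors of such macrophages (273 and 132 cells), had all 10 members higher, where 39.5% of 7837 genes were, and 5 intervals above 0, where 12.5% of genes had one. The monocyte median was 0.18 (−0.02 to 0.33), beside −0.12 for all genes, and *Slc2a1* had 62.4 and 120 CPM (0.90, 0.52 to 1.27). Median depth was 7688 and 6579 UMIs in TAMs and 9147 and 10033 UMIs in Kupffer cells. The TAM median was 0.45 with median-of-ratios scaling, 0.51 in the cells marked as male and 0.17 without cells carrying markers of another lineage, where 1 member was past 1.5-fold.

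The epithelial class, which holds tumor cells and biliary epithelial cells (1278 and 760 cells), had members on both sides of 0. The median was 0.01 (−0.22 to 0.19), and 5 of 10 members were higher, where 44.9% of 12049 genes were. *Eno1* was higher, with 984 and 1367 CPM (0.47, 0.41 to 0.53), while *Pgk1* was lower, with 547 and 334 CPM (−0.70, −0.81 to −0.60). *Pkm* had 277 and 176 CPM (−0.64, −0.79 to −0.50), and *Gapdh* 1474 and 1187 CPM (−0.31, −0.37 to −0.25). *Aldoa* (641 and 561 CPM) and *Ldha* (327 and 284 CPM) had log2 ratios of −0.19 and −0.20. The rate-controlling genes *Pfkl* (69.2 and 95.4 CPM; 0.44, 0.22 to 0.65) and *Pfkfb3* (13.8 and 22.5 CPM; 0.55, 0.16 to 0.93) were higher. The enzymes of the lower pathway did not share a direction, and *Eno1* acts between *Pgk1* and *Pkm*. *Pgk1* and *Pkm* were past 1.5-fold lower, where 7.17% of genes were, and no member was past it higher, where 7.45% were.

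Over the alternatives, *Eno1* in the epithelial class stayed between 0.44 and 0.66, *Pgk1* between −0.83 and −0.48 and *Pkm* between −1.15 and −0.33. The limit of 5000 detected genes removed many epithelial cells, since without it the class held 1678 and 867 cells. *Slc2a1* was 0.00 and *Ldha* −0.56 without that limit. *Pfkfb3* was 0.02 with cells thinned to 1000 UMIs. In this class the stress list had the largest median of the 9 classes (1.81), and *Clec4f*, a Kupffer cell gene, was at 29.1 and 130 CPM. At the *Clec4f* share, free Kupffer cell RNA would carry 39.9 of the 1187 CPM of *Gapdh* in the anti–PD-1 library. The median depth was 2257 and 1599 UMIs.

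In neutrophils (1196 and 2839 cells), only *Slc2a1* had an interval above 0 (10.9% of genes had one), with the log2 ratio of 0.45 (0.26 to 0.64) that goes with the levels given above. The intervals of 7 members lay below 0, where 39.3% of all genes had one. *Hk2* had 48.3 and 26.4 CPM (−0.77, −1.09 to −0.44), *Pfkfb3* 61.3 and 43.7 CPM (−0.44, −0.73 to −0.16) and *Pkm* 979 and 789 CPM (−0.31, −0.38 to −0.23). The median was −0.21 (−0.31 to −0.06), but the median of all genes was −0.27, so the members were 0.06 above it. Of the members 3 were higher, where 26.5% of 10064 genes were. *Hk2* alone was 1.5-fold lower, where 20.7% of genes were, and none was 1.5-fold higher, where 5.97% were. In neutrophils marked as male (72 and 1055 cells) *Hk2* was −0.11, while *Pfkfb3* (−0.74) was 1.5-fold lower and *Slc2a1* (1.15) 1.5-fold higher. With median-of-ratios scaling the neutrophil median was 0.12, 8 members were higher, and *Aldoa*, *Gapdh*, *Pgk1*, *Pkm* and *Ldha* changed sign. As this scaling centres the median gene of the class on no change, the shares of all genes above do not apply to it.

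The smaller classes showed single genes that stood apart. The members' medians were 0.14 in endothelial cells, 0.09 in fibroblasts, 0.36 in mature dendritic cells, 0.38 in cDC1 and 0.08 in cDC2. In plasma cells and gamma-delta T cells they were 0.17 and 0.12. The medians of all genes lay between −0.13 in cDC2 and 0.10 in plasma cells. In endothelial cells (505 and 93), which line vessels and are known for their use of PFKFB3, *Pfkfb3* had 31.9 and 78.4 CPM (1.18, 0.62 to 1.71) while *Pgk1* had 210 and 146 CPM (−0.51, −0.89 to −0.15). In mature migratory dendritic cells (70 and 57) *Pfkfb3* went the other way (−0.69, −1.01 to −0.38) and *Aldoa* had 341 and 588 CPM (0.78, 0.45 to 1.11). In cancer-associated fibroblasts (404 and 167) *Hk2* had 9.50 and 34.6 CPM (1.45, 0.81 to 2.06), on 21 and 32 UMIs. In cDC1 (84 and 67), which present antigen to CD8 T cells, *Pkm* had 252 and 443 CPM (0.80, 0.54 to 1.06) and *Gapdh* 801 and 1226 CPM (0.61, 0.46 to 0.76). A list of cycling genes had a median of 1.39 in cDC1 (9 genes measured), and cDC1 without cycling cells were not described. In cDC2 (243 and 106) *Slc2a1* had 58.5 and 133 CPM (1.12, 0.76 to 1.47), and *Gapdh* differed by 0.04. In plasmacytoid dendritic cells (80 and 58) *Gapdh* had 633 and 770 CPM (0.28, 0.03 to 0.53), the only interval that did not span 0. The members' median there was −0.10 (−0.64 to 0.52), beside −0.05 for all genes. The list of cycling genes had a median of 3.57 in plasmacytoid dendritic cells (4 genes measured), and these cells without cycling ones were not described. In gamma-delta T cells (61 and 54) *Slc2a1* had 17.4 and 85.6 CPM (2.01, 0.46 to 3.55), on 3 and 17 UMIs. In plasma cells (109 and 76) *Aldoa* had 104 and 155 CPM (0.56, 0.26 to 0.85).

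Other lists were read beside the 10 members by their counts and medians, and the ranges given are over the 9 larger classes. Of 26 further genes of glycolysis and transport, the median was highest of the 9 in CD8 T cells (0.36, 17 genes measured, 13 higher) and lowest in neutrophils (−0.21, 16 measured, 5 higher). The shares of all genes that were higher or past 1.5-fold in these classes are those given above for the members. In CD8 T cells 5 were past 1.5-fold. The lactate exporter gene *Slc16a3* had 7.26 and 24.5 CPM (1.27, 0.86 to 1.66) and its relative *Slc16a1* 21.8 and 43.6 CPM (0.86, 0.54 to 1.18). The triose phosphate isomerase gene *Tpi1* had 112 and 188 CPM there (0.72, 0.56 to 0.88). *Tpi1* was lower in Treg, with 310 and 220 CPM (−0.48, −0.72 to −0.25), and in the epithelial class, with 429 and 335 CPM (−0.35, −0.46 to −0.25). *Slc16a3* was also higher in neutrophils, with 282 and 660 CPM (1.21, 1.09 to 1.34), where most members were lower. *Hk3*, a hexokinase of myeloid cells, was higher in TAMs, with 66.5 and 212 CPM (1.60, 1.50 to 1.71). *Hk3* had 224 and 403 CPM in Kupffer cells and 4.23 and 14.5 CPM in CD8 T cells. *Clec4f* in CD8 T cells was at 0.534% of its Kupffer level with PBS and at 2.10% with anti–PD-1. The part of free RNA in the CD8 value of *Hk3*, which counts among the 5 past 1.5-fold, was not tested.

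Over the same 9 classes, genes of the hypoxia response outside glycolysis had a median between −0.14 in neutrophils and 0.36 in CD8 T cells. In CD8 T cells 7 of 13 were higher (37.8% of all genes), and *Hif1a*, the gene of the HIF-1 subunit, had 76.5 and 153 CPM (0.95, 0.77 to 1.15). In conventional CD4 T cells 10 of 13 (33.8% of all genes) and in Treg 10 of 12 (42.1%) were higher, with medians of 0.35 and 0.32. The members' medians there were −0.02 and −0.10, with *Slc2a1* at 0.85 and 0.56, and a link between the lists was not tested. In TAMs 11 of 15 were higher (31.0% of all genes), and *Vegfa*, the vascular growth factor gene, had 13.3 and 140 CPM (2.98, 2.83 to 3.14). *Vegfa* in Kupffer cells had 4.86 and 36.8 CPM (2.08, 1.83 to 2.32). In the epithelial class 3 of 15 were 1.5-fold lower and none higher, where 7.17% and 7.45% of all genes were. They were *Car9*, a carbonic anhydrase gene, with 44.4 and 11.4 CPM (−1.59, −1.98 to −1.18), *Bnip3* with 62.5 and 28.4 CPM (−1.02, −1.33 to −0.71) and *Egln3* with 44.2 and 26.5 CPM (−0.64, −0.97 to −0.31). These 3 genes had the direction of *Pgk1* and *Pkm* in the same cells. Over the whole list 7 of 15 were higher, near the 44.9% of all genes, with a median of −0.02, and the intervals of *Vegfa* (0.36, 0.14 to 0.57) and *Kdm3a* (0.37, 0.09 to 0.65) lay above 0, as did that of *Eno1*.

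The citric acid cycle list had medians over the 9 classes from −0.29 in Treg to 0.08 in CD8 T cells, and the pentose phosphate list ranged from −0.24 in Treg to 0.12 in CD8 T cells. In CD8 T cells the members' median of 0.53 lay above both. Over these classes the cycling list had medians from −0.85 in Treg and −0.56 in conventional CD4 T cells to 0.36 in CD8 T cells and 0.86 in NK cells. The stress list was above 0 in all 9 classes, from 0.50 in neutrophils to 1.81 in the epithelial class. In Treg (1.16) and conventional CD4 T cells (0.76) the members' medians were near 0, while *Slc2a1* was higher (0.56 and 0.85). A link between the lists was not tested. Gluconeogenesis genes were measured in 3 of the 9 classes, with medians from −0.05 to 0.03.

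**Figure D4:**
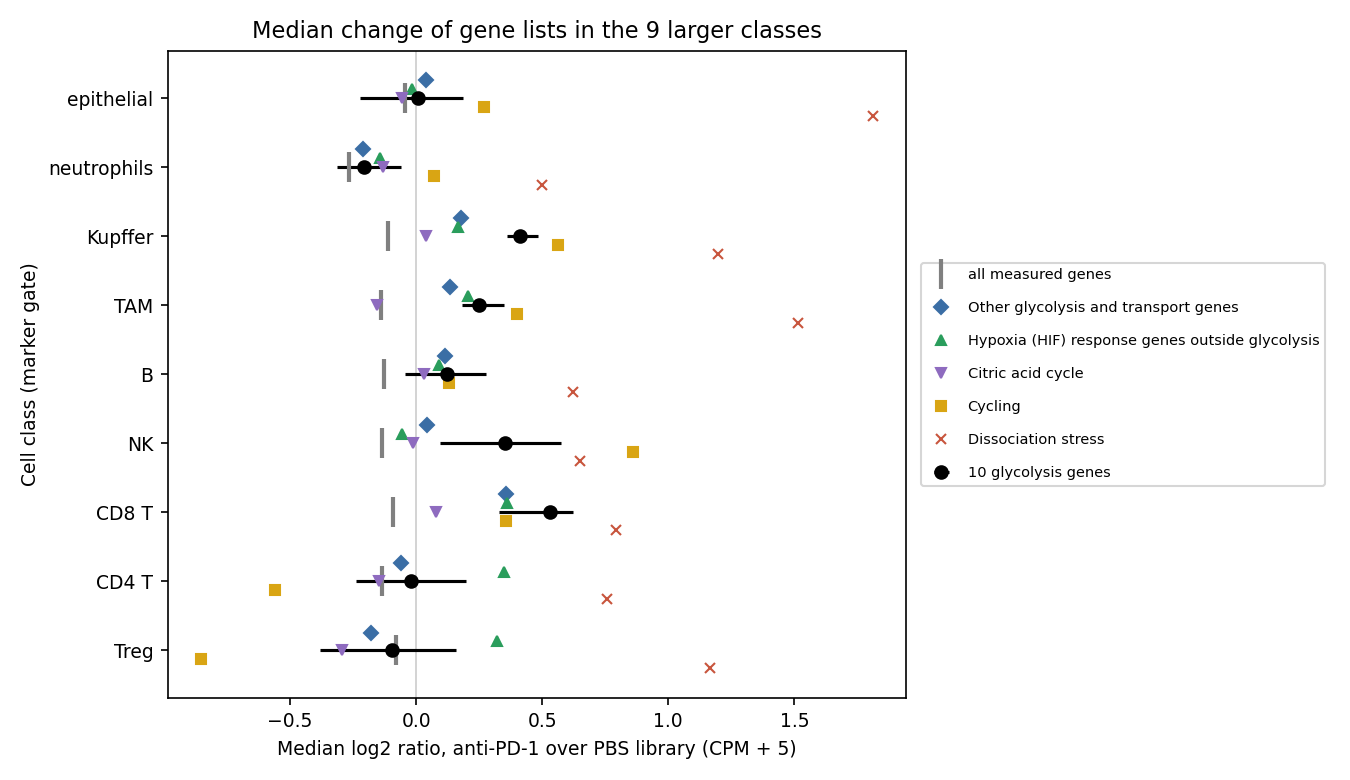
Median log2 ratio of the anti–PD-1 over the PBS library (CPM + 5) in the 9 larger classes, for the 10 glycolysis genes (black circles with bars from the median lower to the median upper 95% counting bound), for all measured genes (grey ticks) and for 5 other lists (coloured symbols, set apart vertically for reading). The glycolysis median reaches 0.53 in CD8 T cells and 0.41 in Kupffer cells and is −0.10 in Treg, while the stress list lies above 0 in every class.

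Across the 18 classes of a library, some members went together and others did not. Pearson's r of log2(CPM + 5) over 18 classes was between 0.74 and 0.86 for the 6 pairs among *Aldoa*, *Gapdh*, *Pgk1* and *Eno1* in the PBS library, and between 0.68 and 0.80 in the other. Pairs with *Hk2* or *Pfkfb3* had a median r of 0.19 and 0.36. These are descriptions over classes of 1 library, which share its free RNA and depth. The gene outside the list with a profile most like the members' mean, over 36 sums, was *Gpi1* (r = 0.83), which encodes glucose-6-phosphate isomerase between hexokinase and phosphofructokinase. *Sem1* (0.82), *Arpc1b* (0.80) and *Gnb2* (0.80) followed, among 591 genes with at least 30 UMIs in every sum.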

How the data were processed

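Single cells of CCA livers were measured with the Singleron GEXSCOPE kit in 2 libraries, 1 per group. The authors deposited raw UMI counts per gene and barcode, made from the reads with Singleron's Cell Scope and the mm10 genome. Its version, the annotation and the strand handling are not given in the sources used here, and Seurat 4.3 is named in the submitters' processing notes. The counts were used as deposited. Of the 32589 gene IDs, 32522 were found in GENCODE vM21. The symbol *Aldoa* stands on 2 entries, and the first entry was used (the second had 5 and 4 UMIs). *Eno1b*, a near-identical copy of *Eno1*, had 448 and 445 UMIs, so reads of both may be split.

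Each cell took the lineage, out of 18, with the highest mean marker score. At least 3 of its markers had to be detected, with a score of at least 0.2, and the best unrelated lineage had to score below 0.6 times as much. Kupffer cells needed a *Clec4f* UMI and 3 of 5 Kupffer markers. Doublets were not called by a program, and the alternative without cells carrying 3 or more markers of another lineage bears on them.

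UMIs were summed per library and class (ratios for at least 50 cells in both, the 9 larger classes at least 200). CPM carry exact Poisson intervals and log2 ratios exact conditional binomial bounds, cycling shares exact Clopper-Pearson intervals. The interval of a median is the median of the members' lower and upper bounds. The bounds were checked on simulated counts. All 10 members were eligible in every class, and where the text names some of them, the rest are in the counts and the map of log2 ratios. They were counted even with fewer than the 30 UMIs asked of the genes in the shares, as *Hk2* in NK cells and Treg. Of the other lists, up to 4 genes a class past 1.5-fold were eligible, and *Tpi1* in Treg and the epithelial class and *Vegfa* and *Kdm3a* in the epithelial class were named after their values were seen. The CD8 T cells with a *Pdcd1* UMI were added after values were seen. The members, lists and gates were chosen with earlier results of these data known. Analyses used Python with numpy, scipy and pandas.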

Additional observations from a re-analysis of the deposited data

Results flagged for a closer look

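Within T cells, 4 glycolysis genes had counting intervals on opposite sides of 0 in CD8 T cells and in Treg. The log2 ratio in CD8 T cells minus that in Treg was 0.87 for *Gapdh*, 0.57 for *Pgk1*, 0.76 for *Pkm* and 0.69 for *Ldha*. All 4 were higher in Treg too when only cells marked as male by a Y-linked UMI without *Xist* were used (22 PBS Treg). Without cycling cells *Ldha* was higher in both classes (0.16 and 0.03), and *Pgk1* had intervals that spanned 0 in both (0.04, −0.13 to 0.21, and −0.25, −0.58 to 0.07). Between CD8 T cells and conventional CD4 T cells the difference was 0.73 for *Gapdh*, 0.61 for *Pgk1* and 0.63 for *Pkm*. In TAMs and the epithelial class 5 genes had opposite directions, and the log2 ratio in TAMs minus that in the epithelial class was 0.56 for *Aldoa*, 0.51 for *Gapdh*, 0.92 for *Pgk1*, 0.89 for *Pkm* and 0.44 for *Ldha*. With 1 library per group these differences between classes were not tested.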

How the results depend on the processing

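No paired analysis was possible because each group is 1 library. The medians of the 10 genes stayed between the main median lower and median upper bounds in 104 of 118 alternatives. The counts past 1.5-fold stayed within 1.5 times in 191 of 236, and single genes within their interval in 951 of 1180. The alternative with no minimum of UMIs is in these totals but could not differ from the main setting, because the members' values use no such minimum. It is also among the 13 alternatives given for *Gapdh* in conventional CD4 T cells. Shares of all genes under the alternatives were not computed beyond those given above. Single genes changed sign in 67 of the 1180. In 45 of these the main interval spanned 0, and the other 22, of genes whose main interval excluded 0, are named below. The causes of these changes were not tested.

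Median-of-ratios scaling, whose factor was −0.05 to −0.33 on the log2 scale, moved the median to 0.12 in neutrophils, 0.57 in Kupffer cells, 0.45 in TAMs and 0.64 in CD8 T cells. It centres the median gene of each class on no change, so the shares of all genes given above do not apply to its counts. Genes at least 1.5-fold higher then numbered 1 in the epithelial class, neutrophils and Treg, 4 in Kupffer and NK cells and 6 in CD8 T cells, and 0 were 1.5-fold lower in neutrophils. *Aldoa* (0.23), *Gapdh* (0.056), *Pgk1* (0.079), *Pkm* (0.024) and *Ldha* (0.17) changed sign in neutrophils, as did *Gapdh* in conventional CD4 T cells (0.027), while 4 further sign changes were in genes whose main interval spanned 0.

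With cells marked as male by a Y-linked UMI without *Xist*, the median was −0.060 in neutrophils, 0.51 in TAMs, 0.72 in CD8 T cells and 0.38 in Treg. Genes 1.5-fold higher numbered 3 in the epithelial class and Kupffer cells, 1 in neutrophils, 2 in B cells, 7 in CD8 T cells and 4 in Treg and NK cells, and 1 was lower in Treg. *Aldoa* changed sign in neutrophils (0.30), *Gapdh* in conventional CD4 T cells (0.050), and *Gapdh* (0.27), *Pgk1* (1.05), *Pkm* (0.48) and *Ldha* (0.17) in Treg.

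Without cells carrying markers of another lineage, the median was 0.50 in Kupffer cells, 0.17 in TAMs and 0.26 in CD8 T cells. Genes 1.5-fold higher numbered 1 in the epithelial class, TAMs and CD8 T cells, 2 in Kupffer cells and 4 in NK cells, and 0 were lower in the epithelial class. *Aldoa* in B cells (−0.10) and *Slc2a1* in Treg (−0.0665) changed sign. With each cell counted alike, the CD8 median was 0.32, with 1 gene 1.5-fold higher there and in Treg, 2 higher and 0 lower in the epithelial class. *Aldoa* in B cells (−0.021) and *Gapdh* in conventional CD4 T cells (0.024) changed sign.

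Without cycling cells, chosen after seeing the data, the CD8 median was 0.22 with 1 gene 1.5-fold higher, while 2 were higher in Treg and 1 lower in the epithelial class. *Gapdh* in conventional CD4 T cells (0.015), *Ldha* in Treg (0.033) and *Pgk1* in NK cells (−0.10) changed sign, and so did 9 values whose main interval spanned 0, such as *Hk2* in Treg (0.90) and in the epithelial class (−0.11). With UMIs of both *Cd8a* and *Cd8b1* required, also added later, 5 genes were 1.5-fold higher in CD8 T cells.

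Thinned to 1000 UMIs, 1 gene was 1.5-fold higher and 1 lower in the epithelial class, and 3 were higher in Kupffer cells and 1 in TAMs and NK cells. *Pfkfb3* in Kupffer cells (−0.052), *Pgk1* in TAMs (−0.023) and *Aldoa* in B cells (−0.11) changed sign. With no upper limit for detected genes, the Kupffer median was 0.51, with 3 genes 1.5-fold higher there and 5 in CD8 T cells. With 20% mitochondrial UMIs, 2 were higher and 1 lower in the epithelial class. The stricter gate gave 4 higher in NK cells. A pseudocount of 1 CPM gave 1 higher in the epithelial class and Treg and 5 in CD8 T cells, and one of 20 CPM gave 0 higher in B cells, 1 in NK cells and 0 lower in neutrophils. In the order of classes, the leading class was unchanged in 16 of 20 pairs of gene and library with each cell counted alike and in 17 with the stricter gate. Depth limits *Hk2*, which had under 30 UMIs in the PBS library in CD8 T, conventional CD4 T, Treg, NK and B cells.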
